A study of Mus musculus with 6 samples.

Results

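The genes described here encode parts of the motile cilium, in polysomal mRNAs of hippocampal astrocytes. They are the 54 genes, of 22086 in the annotated counts, whose symbols name an axonemal dynein heavy chain (Dnah), a dynein intermediate chain (Dnai), a radial spoke head protein (Rsph) or a cilia and flagella associated protein (Cfap), together with Foxj1. The Dnai pattern matched 0 symbols, so the members were 15 heavy chains, 8 radial spoke genes, 30 Cfap genes and Foxj1. The members were chosen by name and not by their values.

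The mRNAs came from whole hippocampi of 6 weeks-old mice by translating ribosome affinity purification (TRAP), which pulls down ribosomes carrying an eGFP-tagged Rpl10a, with 3 libraries per genotype. All mice carried the tagged ribosomal protein under the Aldh1l1 promoter and 2 floxed alleles of Cx43. The Cx43FL littermates were tg:Aldh1L1-RPL10aGFP/ Cx43 fl/fl, without Cre. The Cx43KO mice had the same tg:Aldh1L1-RPL10aGFP and Cx43 fl/fl alleles with Gfap Cre added, a Cre driven by the human Gfap promoter that is used to delete Cx43 in astrocytes, and this promoter is also active in precursors of other neural cells. Nothing in the labels says whether the libraries of a genotype came from separate animals, so p-values measure the spread between libraries only.

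Motile cilia beat by the sliding of microtubule doublets, driven by outer and inner dynein arms and controlled by radial spokes and a central pair of microtubules. In the brain they are borne by ependymal cells, which line the ventricles and move cerebrospinal fluid, and cilia also stand on choroid plexus epithelium. Parenchymal astrocytes carry a single primary cilium, which lacks the arms, spokes and central pair, and Foxj1 is the transcription factor that switches on the motile programme together with factors of the RFX family.

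The counts on genes summed to between 14787303 and 34733473 per library, and 3 counts, taken as the limit that a count of 0 allows, corresponded to 0.0864 to 0.203 CPM, the counts of a gene scaled to the effective size of its library. The limits for a count of 0 cover counting error only. Gja1, the gene of Cx43, had 92.0, 91.7 and 82.3 CPM in Cx43FL replicates 1, 2 and 3 and 87.2, 98.4 and 95.1 CPM in Cx43KO replicates 1, 2 and 3. Its level was not lower in the libraries labelled Cx43KO (log2 fold change 0.08 ± 0.28 SE, adjusted p = 0.949 by edgeR), so the groups below are those of the labels, and each direction given is between libraries labelled Cx43KO and libraries labelled Cx43FL. Cx43FL replicate 2 stood apart in markers of the choroid plexus, and Cx43KO replicate 1 was the highest library for 30.3% and the lowest for 29.9% of all tested genes. In these bulk samples, fewer cells of a type and less RNA per cell cannot be told apart.

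The motile programme is known to be read from RFX sites in cilia gene promoters, so the promoter windows of the members are shown where a site of this kind was found. The windows were taken from RefSeq on GRCm38.p6 and span 250 bases before to 50 bases after a gene's start, and 42 of the 54 members had at least 1, giving 46 windows. The spaced RFX palindrome, in which GTNNCC is followed after NN by its reverse complement GGNNAC, was found on either strand in 5 windows, those of Cfap126, Cfap206, Cfap298, Cfap77 and Rsph9. These made 10.9% of the members' windows, against 1.88% of all 32851 windows. The single RFX site GTTGCC was found on either strand in 16 windows of 15 members, 34.8% against 12.5% of all windows, and may lie inside the palindrome, as it does in Cfap298. The forkhead core TGTTTAC, of the kind that Foxj1 binds, was on either strand in 3 windows, those of Cfap20, Cfap43 and Dnah17, or 6.52% against 3.65% of all windows. These matches are descriptions of the letters and not of binding. Members without a window were Cfap53, Cfap54, Cfap65, Cfap73, Cfap97, Cfap157, Cfap299, Dnah3, Foxj1, Rsph1, Rsph4a and Rsph10b.

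The stretches below belong to members with well counted transcripts and carry the palindrome (Cfap298, Cfap126, Rsph9), the palindrome in a gene of low counts (Cfap206), or the forkhead core (Cfap20, Dnah17). Each is written 5′ to 3′ on the gene's strand, and capitals mark the motif matches. They lie at chr16:90934850-90935099 on the minus strand for Cfap298, chr1:171122795-171123044 on the plus strand for Cfap126, chr17:46144193-46144442 on the minus strand for Rsph9, chr4:34730207-34730456 on the minus strand for Cfap206, chr8:95434870-95435119 on the minus strand for Cfap20 and chr11:118129220-118129469 on the minus strand for Dnah17. Each ends at the base before the RefSeq start except that of Rsph9, which runs 8 bases past it because its palindrome spans the start.
Cfap298: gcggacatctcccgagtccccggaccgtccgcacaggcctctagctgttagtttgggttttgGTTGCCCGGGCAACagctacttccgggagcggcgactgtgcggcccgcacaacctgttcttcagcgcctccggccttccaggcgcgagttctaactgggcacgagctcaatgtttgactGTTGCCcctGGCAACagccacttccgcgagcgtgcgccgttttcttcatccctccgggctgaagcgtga
Cfap126: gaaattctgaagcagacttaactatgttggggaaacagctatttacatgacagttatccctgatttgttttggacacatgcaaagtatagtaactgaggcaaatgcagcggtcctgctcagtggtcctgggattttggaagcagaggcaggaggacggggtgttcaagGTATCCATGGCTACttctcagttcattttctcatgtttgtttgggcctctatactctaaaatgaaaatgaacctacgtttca
Rsph9: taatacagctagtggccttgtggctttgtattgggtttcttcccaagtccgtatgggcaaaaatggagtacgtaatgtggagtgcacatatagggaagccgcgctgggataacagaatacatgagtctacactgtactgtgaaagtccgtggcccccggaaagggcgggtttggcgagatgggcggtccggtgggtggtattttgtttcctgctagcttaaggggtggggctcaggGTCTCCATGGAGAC
Cfap206: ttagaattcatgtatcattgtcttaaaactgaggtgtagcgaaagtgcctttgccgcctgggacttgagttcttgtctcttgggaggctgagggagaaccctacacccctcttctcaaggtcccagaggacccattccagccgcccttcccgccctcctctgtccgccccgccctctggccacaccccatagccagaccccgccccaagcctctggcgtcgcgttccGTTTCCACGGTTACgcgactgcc
Cfap20: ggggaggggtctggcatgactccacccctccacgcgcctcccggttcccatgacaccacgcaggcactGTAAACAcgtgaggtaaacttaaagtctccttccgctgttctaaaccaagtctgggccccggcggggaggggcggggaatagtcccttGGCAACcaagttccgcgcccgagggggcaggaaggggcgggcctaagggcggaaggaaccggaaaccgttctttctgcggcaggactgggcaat
Dnah17: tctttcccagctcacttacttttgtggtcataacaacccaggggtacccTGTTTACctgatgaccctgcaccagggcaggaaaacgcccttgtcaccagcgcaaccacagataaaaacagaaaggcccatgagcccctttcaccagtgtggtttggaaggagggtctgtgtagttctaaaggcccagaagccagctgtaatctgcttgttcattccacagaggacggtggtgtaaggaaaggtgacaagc
The palindrome of Cfap298 is an inverted repeat of the single site, and a further pair of single sites follows it nearer the start. In Cfap20 the single site and the forkhead core stand in the same window.

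Many motile cilia genes had low counts in the astrocyte libraries. Of the 54 members, 37 passed the filter on low counts, 22 had at least 10 counts in every library, 23 were at 0 in at least 1 library, and Dnah7c, Rsph6a and Cfap97d1 were at 0 in all 6. Of all 22086 genes, 13545 passed the filter and 11656 had at least 10 counts in every library. A count of 0 in at least 1 library was found in 8918 of all genes, and in all 6 libraries in 5250. Counts of 0 were thus not particular to the members. Per kilobase of transcript, the median level of the members was 0.880 CPM, against 1.97 CPM for all genes. The members differed widely among themselves. On this scale Cfap36 was the highest at 162 CPM per kilobase, followed by Cfap298 at 49.6, Rsph1 at 41.9, Cfap20 at 31.9 and Rsph9 at 22.9, while the highest dynein heavy chain, Dnah17, was at 1.61 and Foxj1 at 5.20. The heatmap of the 54 members shows this range by role and by library.

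**Figure D1:**
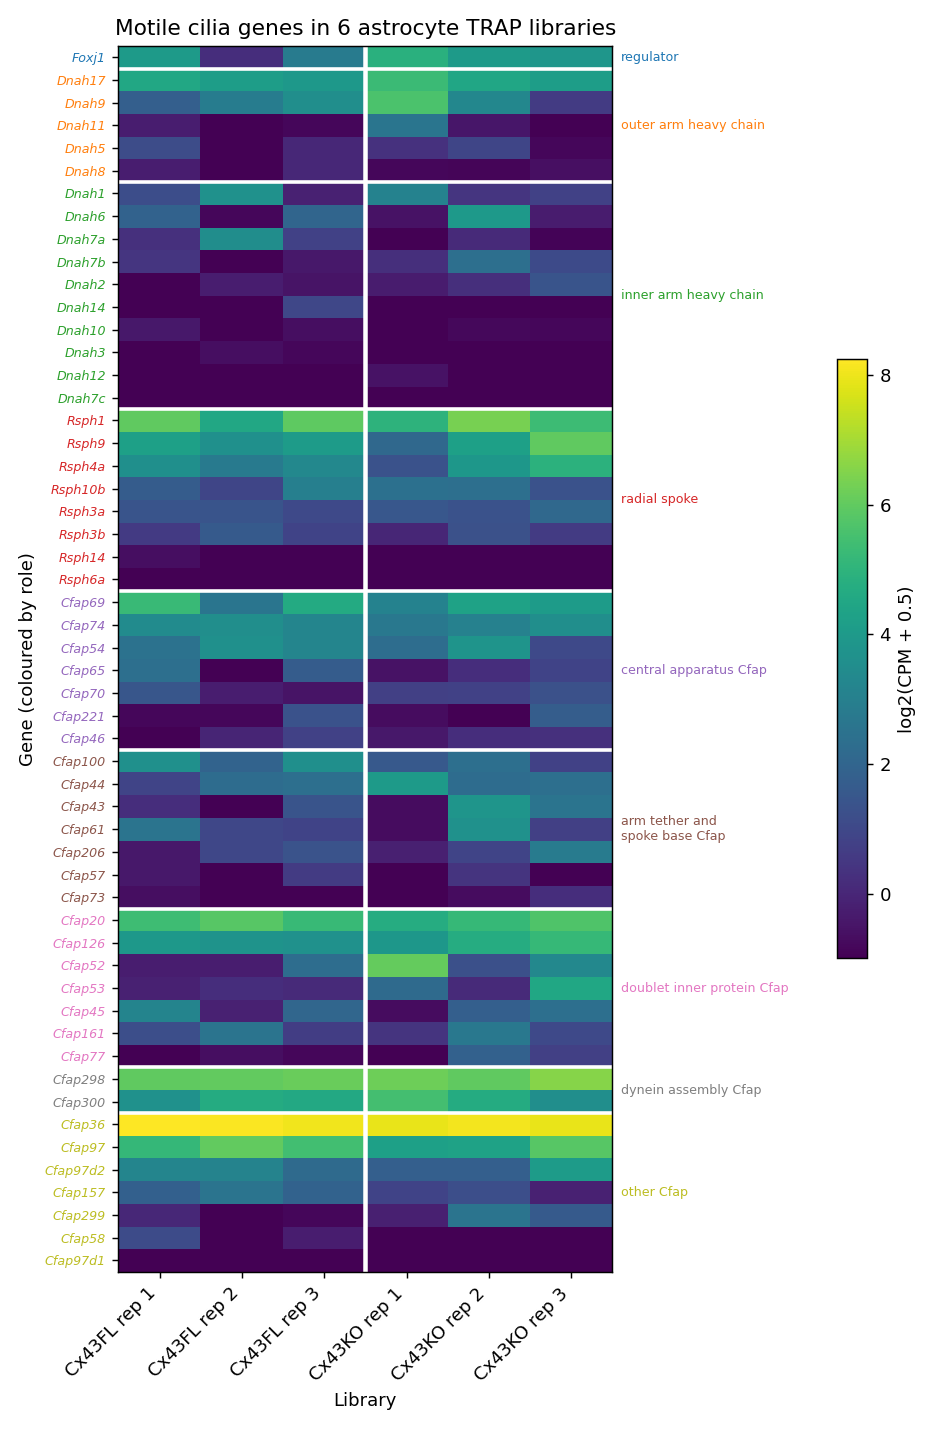
Level of each of the 54 motile cilia genes (rows, coloured and grouped by role, ordered by mean level within a role) in the 6 libraries (columns, 3 Cx43FL left of the white line and 3 Cx43KO right of it), as log2(CPM + 0.5). Cfap36 is high in every library, the dynein heavy chains are low apart from Dnah17 and Dnah9, and single bright cells stand in rows such as Cfap52, Dnah6 and Dnah7a.

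None of the tested members passed the threshold between genotypes by edgeR. With edgeR, 0 of 37 members were called at an adjusted p below 0.05 and a mean normalized count above 50, where 0.00738% of all 13545 tested genes were called higher in Cx43KO and 0% lower, and the lowest adjusted p of a member was 0.540. At an unadjusted p below 0.05, 2 members (Cfap52 and Cfap53) were higher and 1 (Dnah7a) was lower, where 5.66% of all tested genes were higher and 2.67% lower. The groups failed to overlap with Cx43KO higher in 0 members and with Cx43KO lower in 2 (Dnah7a and Cfap157), where 8.08% of all tested genes were higher and 7.45% lower in this way. The log2 fold change was positive in 21 and negative in 16 members, with a median of 0.08 beside 0.07 over all tested genes. DESeq2 without a prior on the fold change called 2 members, Cfap52 and Cfap53, where it called 0.871% of tested genes higher and 0.14% lower. With its normal prior DESeq2 called 0 members, where it called 0.731% of genes higher and 0.103% lower. The plot of fold changes shows each tested member with its error.

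**Figure D2:**
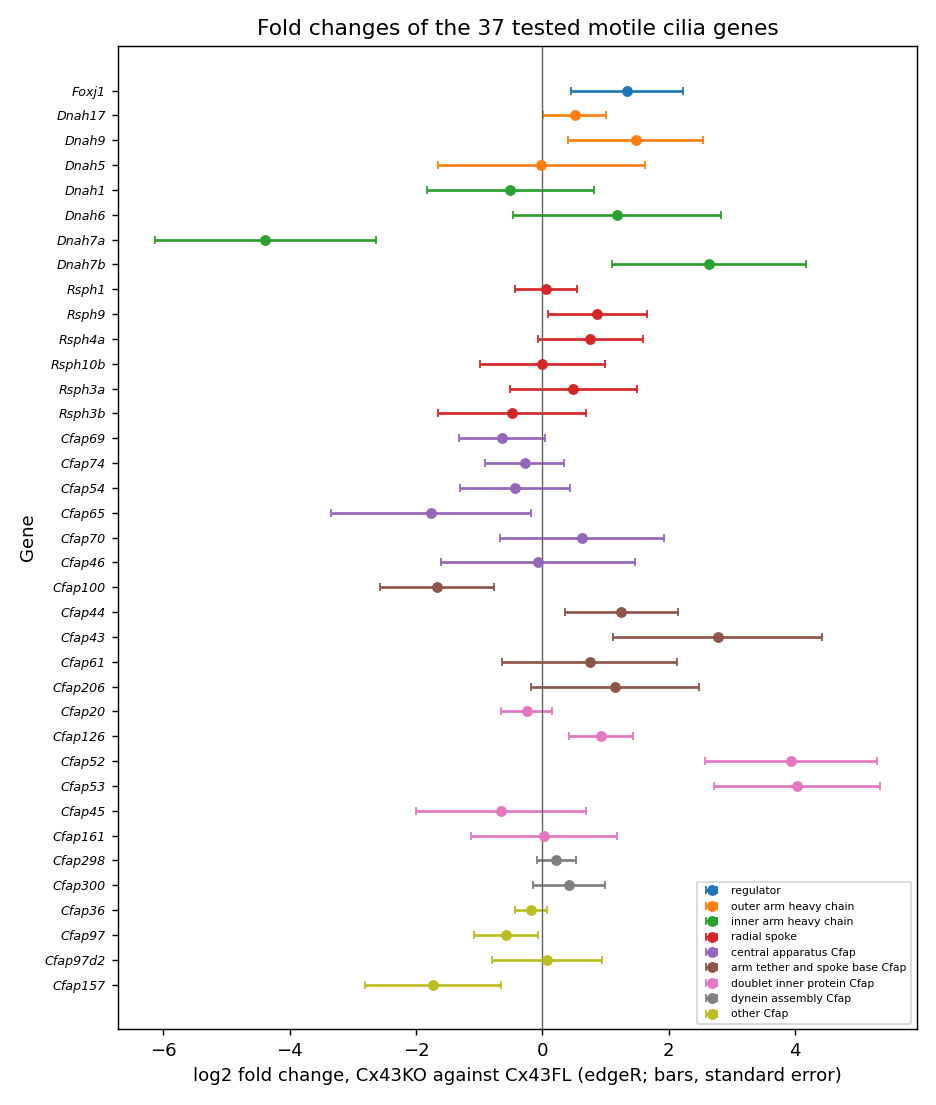
The log2 fold change of Cx43KO against Cx43FL for the 37 tested motile cilia genes (points, coloured by role), 3 libraries per genotype. Bars are 1 standard error derived from the edgeR F statistic. Most bars cross or lie near 0, and Cfap52, Cfap53 and Dnah7a are the 3 members with an unadjusted p below 0.05.

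Foxj1, the regulator of the motile programme, lies on chromosome 11 of GRCm38 from 116330704 to 116335399 on the minus strand. It had 242, 10 and 102 counts in Cx43FL replicates 1, 2 and 3 and 462, 395 and 457 counts in Cx43KO replicates 1, 2 and 3, or 15.9, 0.663 and 6.64 CPM against 28.7, 15.9 and 14.1 CPM. The level was lowest in Cx43FL replicate 2, and Cx43FL replicate 1 fell within the range of the Cx43KO libraries, so the groups overlapped. The log2 fold change was 1.33 ± 0.89 SE (adjusted p = 0.660 by edgeR) and did not pass the test. Without Cx43FL replicate 2 it was 0.78.

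Foxj1 shared its lowest library with the markers of the choroid plexus, as the plot of Foxj1 beside marker genes shows. The 20 choroid plexus markers had a summed level of 11278, 671 and 17076 CPM in Cx43FL and of 36872, 30018 and 28613 CPM in Cx43KO. Fold changes were positive in 20 of 20 of them, and 16 had no overlap between groups, with Cx43KO higher, where 8.08% of all tested genes were higher in this way. Ttr, the thyroid hormone carrier secreted by this epithelium, had 450 CPM in Cx43FL replicate 2 and between 9593 and 32150 CPM elsewhere, and Folr1, a folate receptor of the same cells, was at 0 there and between 8.10 and 36.4 CPM elsewhere. Their part in the Foxj1 difference was not tested. The 8 ependymal markers outside the cilium summed to 867, 798 and 752 CPM in Cx43FL and 440, 741 and 724 CPM in Cx43KO, with none at 0 in any library. They include Nnat, which other brain cells also express. The highest of the 8 averaged 463 CPM over the 6 libraries, so most of these sums came from a single gene. Of these 8 markers, Rarres2, a secreted protein of ependymal cells, had 29.97, 14.6 and 27.9 CPM in Cx43FL and 4.97, 44.4 and 17.1 CPM in Cx43KO. Mia had 6.92, 8.69 and 4.62 CPM in Cx43FL against 6.52, 25.1 and 21.4 CPM in Cx43KO. The groups overlapped for both.

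**Figure D3:**
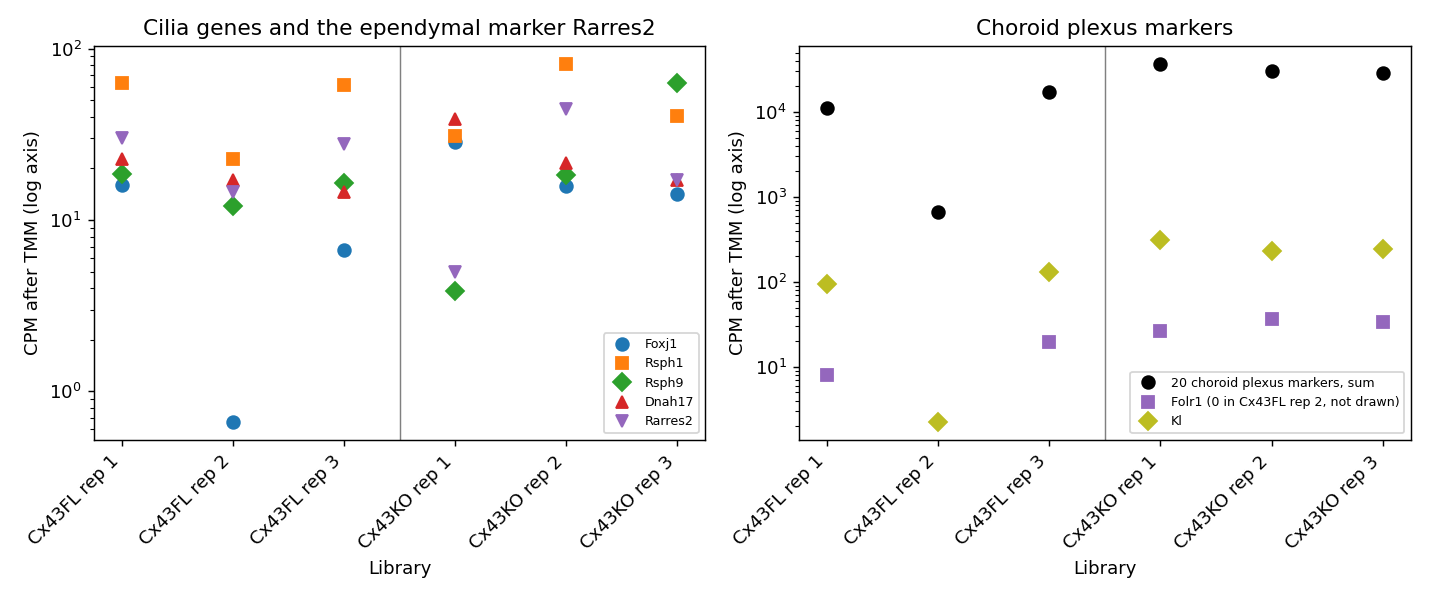
Left, CPM after TMM scaling (log axis) of Foxj1, the cilia genes Rsph1, Rsph9 and Dnah17 and the ependymal marker Rarres2 in each of the 6 libraries. Right, on a log axis, the summed CPM of 20 choroid plexus markers and the level of 2 of them, Folr1 and Kl. Foxj1 and the choroid plexus markers are lowest in Cx43FL replicate 2, and Rsph9 and Rarres2 are lowest in Cx43KO replicate 1.

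The dynein heavy chains are the motor subunits of the arms. Of the 5 outer arm chains 3 were tested, and of the 10 inner arm chains 4, and 11 of the 15 were at 0 in at least 1 library. Their summed level was 34.9, 47.7 and 34.5 CPM in Cx43FL and 104, 54.6 and 23.7 CPM in Cx43KO, so that both the highest and the lowest library were Cx43KO.

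Dnah17, a heavy chain known mainly from sperm, was the best counted of them, with 344, 257 and 225 counts in Cx43FL and 624, 536 and 554 in Cx43KO. Scaled for depth these were 22.7, 17.0 and 14.7 CPM against 38.7, 21.5 and 17.1 CPM, and the groups overlapped (log2 fold change 0.51 ± 0.49 SE, adjusted p = 0.765 by edgeR). Without Cx43KO replicate 1, its highest library, the log2 fold change of Dnah17 was 0.09. Dnah9, an outer arm chain of respiratory and ependymal cilia, had 2.96, 6.90 and 11.5 CPM in Cx43FL and 49.1, 9.24 and 1.02 CPM in Cx43KO. A single library, Cx43KO replicate 1, held 60.9% of its summed CPM, and without it the log2 fold change turned from 1.47 to −0.47. Dnah5, the outer arm chain in which mutations most often cause primary ciliary dyskinesia, stayed at or under 1.71 CPM and was at 0 in Cx43FL replicate 2. Dnah11 had 90 counts in Cx43KO replicate 1 and 6 or fewer in each of the other libraries, and Dnah8 had 8 or fewer in each.

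The inner arm chains varied widely between libraries, and the 4 tested ones had at least 10 counts in 4 or 5 of the libraries. Dnah1 had 1.78, 12.1 and 0.391 CPM in Cx43FL and 8.01, 0.844 and 1.23 CPM in Cx43KO. Dnah6 had 3.29, 0.0663 and 3.58 CPM in Cx43FL and 0.186, 15.2 and 0.309 CPM in Cx43KO, with 67.1% of its summed CPM in Cx43KO replicate 2. High and low libraries stood in both groups for these genes. Dnah14 had 22 counts in Cx43FL replicate 3 and 0 in the other 5 libraries, and Dnah12 had 3 counts in Cx43KO replicate 1 and 0 elsewhere. Dnah2 reached 69 counts in Cx43KO replicate 3 and 17 or fewer elsewhere, while Dnah3 and Dnah10 had 4 or fewer in each library.

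Dnah7a and Dnah7b, inner arm chains on chromosome 1, had fold changes of opposite sign. Dnah7a (53397006 to 53706784, minus strand) had 11, 167 and 19 counts in Cx43FL and 0, 14 and 1 in Cx43KO, or 0.725, 11.1 and 1.24 CPM against 0, 0.563 and 0.0309 CPM. The groups did not overlap, all of Cx43KO being lower, and Cx43FL replicate 2 held 81.3% of its summed CPM. The fitted log2 fold change of Dnah7a was −4.39 ± 1.75 SE (unadjusted p = 0.0290, adjusted p = 0.556 by edgeR), the exact permutation test on log2(CPM + 0.5) gave p = 0.1, the smallest that 3 against 3 libraries allow, and without Cx43FL replicate 2 the fold change was −2.26. Dnah7b (46066315 to 46373546, plus strand) had 0.856, 0 and 0.261 CPM in Cx43FL and 0.683, 4.74 and 1.61 CPM in Cx43KO, with overlapping groups and a log2 fold change of 2.64 ± 1.54 SE (adjusted p = 0.633 by edgeR). Added together, they had 1.58, 11.1 and 1.498 CPM in Cx43FL and 0.683, 5.30 and 1.64 CPM in Cx43KO, and the groups then overlapped.

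Their transcripts are near copies, so each level is uncertain. Over 12245 aligned bases they differed at 382, an identity of 96.9%, and 40.3% of the 50-base windows of the Dnah7a transcript and 48.4% of those of Dnah7b also occur in transcripts of other genes, where reads mapping more than once were removed. Dnah7c, at 0 in all libraries, shares 68.7% of its windows. The following 100 bases, from 6073 to 6172 of the Dnah7a transcript and from 6136 to 6235 of the Dnah7b transcript, show how little separates them, with the single differing base in capitals.
Dnah7a: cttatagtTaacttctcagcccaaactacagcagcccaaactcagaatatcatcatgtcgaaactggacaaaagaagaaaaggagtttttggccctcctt
Dnah7b: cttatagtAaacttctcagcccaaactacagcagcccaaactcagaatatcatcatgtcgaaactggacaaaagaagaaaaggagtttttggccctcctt
Radial spoke genes Rsph3a and Rsph3b share still more, with an identity of 99.4% and 83.0% and 84.7% of windows in common with other genes, and both were at or under 3.86 CPM in every library.

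Among structural members of the motile axoneme, radial spoke genes most often had at least 10 counts in every library, 5 of 8 doing so. By median level the tested Cfap genes of the doublet's inner wall stood higher, at 9.35 CPM against 8.10 CPM for the spoke genes. Radial spokes carry signals from the central pair to the arms. The sum of the 8 spoke genes was 99.4, 47.2 and 97.2 CPM in Cx43FL and 44.5, 123 and 141 CPM in Cx43KO, with Cx43KO replicate 1 lowest and the other Cx43KO libraries highest. Rsph1, a spoke head protein whose gene lies on chromosome 17 from 31255019 to 31277383, had 63.2, 22.6 and 61.0 CPM in Cx43FL and 31.0, 81.5 and 40.4 CPM in Cx43KO. The lowest library was Cx43FL replicate 2 and the highest Cx43KO replicate 2, so the groups overlapped (log2 fold change 0.06 ± 0.49 SE, adjusted p = 0.982 by edgeR).

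Rsph9 and Rsph4a, which encode further parts of the spoke head, varied alike over the libraries. Rsph9 had 18.5, 12.1 and 16.4 CPM in Cx43FL and 3.85, 18.4 and 63.4 CPM in Cx43KO. Rsph4a had 11.7, 6.50 and 9.38 CPM in Cx43FL and 1.99, 14.2 and 30.3 CPM in Cx43KO. For both genes Cx43KO replicate 1 was the lowest library and Cx43KO replicate 3 the highest, so that the Cx43KO range contained the whole Cx43FL range. The log2 fold changes of 0.87 and 0.76 became −0.49 and −0.18 without Cx43KO replicate 3. Rsph14 had 2 counts in Cx43FL replicate 1 and 0 elsewhere.

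Cfap52 and Cfap53, the 2 of 37 tested members higher at an unadjusted p below 0.05, are Cfap genes of the inner wall of the microtubule doublet. Over all tested genes 5.66% were higher at this p, so this number of members was near the background. Cfap52 on chromosome 11 (67924806 to 67965651, minus strand) had 5, 5 and 68 counts in Cx43FL and 1079, 47 and 305 in Cx43KO, or 0.329, 0.332 and 4.43 CPM against 67.0, 1.89 and 9.42 CPM. Cx43FL replicate 3 lay above Cx43KO replicate 2, and Cx43KO replicate 1 alone held 80.3% of the summed CPM. Its log2 fold change was 3.93 ± 1.37 SE (unadjusted p = 0.0151, adjusted p = 0.540 by edgeR; adjusted p = 0.0259 by DESeq2 without a prior) and fell to 1.73 without Cx43KO replicate 1.

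Cfap53, which is also needed for left-right patterning, lies on chromosome 18 from 74283090 to 74359986. It had 0.395, 0.663 and 0.586 CPM in Cx43FL and 4.10, 0.563 and 22.5 CPM in Cx43KO. The Cx43FL libraries were close together, Cx43KO replicate 2 lay among them, and Cx43KO replicate 3 held 78.1% of the summed CPM. The log2 fold change of Cfap53 was 4.03 ± 1.31 SE (unadjusted p = 0.0108, adjusted p = 0.540 by edgeR; adjusted p = 0.0440 by DESeq2 without a prior) and 2.07 without Cx43KO replicate 3. Thus the high library was a different one in Cfap52 and in Cfap53.

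The other doublet proteins showed smaller differences. Cfap20, an inner junction protein, had 41.4, 56.8 and 36.7 CPM in Cx43FL and 25.6, 36.1 and 51.4 CPM in Cx43KO (log2 fold change −0.25 ± 0.40 SE). Cfap126, known as Flattop, had 14.6, 13.1 and 12.3 CPM in Cx43FL and 14.2, 26.1 and 35.8 CPM in Cx43KO (log2 fold change 0.93 ± 0.51 SE, adjusted p = 0.616 by edgeR), and only Cx43KO replicate 1 fell within the Cx43FL range. Cfap45 and Cfap161 ranged from 0.124 to 8.43 CPM and from 0.807 to 6.07 CPM, with overlapping groups. Cfap77 reached 78 counts in Cx43KO replicate 2 and 39 in Cx43KO replicate 3, with 2 or fewer in the other libraries, and was not tested.

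Cfap298 and Cfap300 act in the assembly of dynein arms before their transport into the cilium. Cfap298 was among the steadier members, while Cfap300 varied more between libraries. Cfap298 had 63.0, 64.1 and 69.6 CPM in Cx43FL and 73.0, 62.3 and 93.6 CPM in Cx43KO (log2 fold change 0.22 ± 0.31 SE, adjusted p = 0.846 by edgeR). Cfap300 had 12.4, 25.3 and 23.1 CPM in Cx43FL and 44.6, 25.4 and 11.3 CPM in Cx43KO. In both genes the groups overlapped. Of the Cfap298 transcript, 41.7% of the 50-base windows also occur in transcripts of the gene model Gm49727.

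The Cfap genes of the central apparatus numbered 7, of which 6 were tested, 5 of them with a negative fold change. Cfap69 had 38.1, 5.57 and 24.8 CPM in Cx43FL and 8.07, 19.7 and 16.3 CPM in Cx43KO, and Cfap74 had 10.5, 11.4 and 8.73 CPM against 6.08, 7.76 and 11.3 CPM. Neither passed the test, the log2 fold changes being −0.64 ± 0.68 and −0.28 ± 0.63 (SE), and both groups overlapped. Cfap74 was represented by a transcript of 2365 bases where its longest has 5487, and its fold change was 0.36 when the transcripts of the gene were added up. Cfap54 ranged from 1.54 to 13.2 CPM, Cfap65 was at 0 in Cx43FL replicate 2 and 4.68 CPM in Cx43FL replicate 1, and Cfap46, Cfap70 and Cfap221 stayed at or under 2.78 CPM.

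Of 7 Cfap genes that tether the arms or stand at the spoke base, 5 were tested and 4 had a positive fold change. Cfap44 had 1.38, 4.38 and 4.69 CPM in Cx43FL and 15.9, 4.34 and 4.69 CPM in Cx43KO, so that Cx43KO replicate 1 stood apart from the 5 other libraries (log2 fold change 1.25 ± 0.90 SE, and 0.37 without Cx43KO replicate 1). Its partner in the tether, Cfap43, had 0.659, 0 and 2.15 CPM in Cx43FL and 0.124, 13.8 and 5.40 CPM in Cx43KO (2.77 ± 1.65 SE, adjusted p = 0.636 by edgeR). The partners thus had their highest values in different libraries, and Cfap43 was nearly absent from the library in which Cfap44 was highest. Cfap100, a regulator of the inner arms, had 11.9, 3.38 and 11.7 CPM in Cx43FL and 2.48, 4.74 and 1.23 CPM in Cx43KO (−1.67 ± 0.90 SE, adjusted p = 0.609 by edgeR), counted on a transcript of 849 bases where its longest has 2992. Cfap61 had 12.3 CPM in Cx43KO replicate 2 and 5.34 CPM or less elsewhere, and Cfap206 had 6.70 CPM in Cx43KO replicate 3 and 2.08 CPM or less elsewhere. Cfap57 and Cfap73 were at 0 in 3 libraries each and were not tested.

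Cfap36, which binds the small GTPase Arl3 and is not particular to motile cilia, was the most even member. It had 303, 294 and 262 CPM in Cx43FL and 243, 274 and 244 CPM in Cx43KO (log2 fold change −0.18 ± 0.25 SE, adjusted p = 0.847 by edgeR), and the groups overlapped. Cfap97 had 34.8, 64.3 and 43.6 CPM against 18.6, 19.3 and 57.6 CPM. Cfap157, a protein of the basal body region studied in sperm, had 3.10, 5.44 and 3.26 CPM in Cx43FL and 1.30, 1.85 and 0.401 CPM in Cx43KO, so that Cx43KO was lower with no overlap. Its log2 fold change was −1.73 ± 1.08 SE (adjusted p = 0.646 by edgeR, p = 0.1 by the exact permutation test). Cfap58 had 25 counts in Cx43FL replicate 1, 5 in Cx43FL replicate 3 and 0 elsewhere, and Cfap299 had 134 and 83 counts in Cx43KO replicates 2 and 3 and 8 or fewer elsewhere.

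The members' counts were often concentrated in 1 library, as the plot of the highest library's share shows. In the median tested member 36.2% of the CPM summed over 6 libraries was in a single library, against 27.5% over all tested genes and 31.9% over the 4334 genes in the middle range of the members' CPM, between their lower and upper quartile. In 9 of the 37 tested members, or 24.3%, a single library held more than 50% of the summed CPM. This held for 7.14% of all tested genes and 11.5% of those in this middle range. The median SD of log2(CPM + 0.5) within a genotype was 0.83 in Cx43FL and 0.89 in Cx43KO for the members. It was 0.42 and 0.65 for all tested genes, and 0.63 and 0.93 for genes in this middle range. Against the middle range the members' median SD was thus larger in Cx43FL and not in Cx43KO. The 2 sets were not matched in level, since all 37 members were used, with lower and higher ones among them. The median CPM was 5.90 for the tested members and 8.61 for the genes in the middle range. No library took most of the high values. The members were highest in Cx43FL replicates 1, 2 and 3 in 7, 7 and 2 cases and in Cx43KO replicates 1, 2 and 3 in 6, 7 and 8 cases. In this order these were 18.9%, 18.9%, 5.41%, 16.2%, 18.9% and 21.6% of the tested members. Over all tested genes the shares were 10.1%, 19.7%, 8.98%, 30.3%, 12.1% and 18.7%. The lowest value stood most often in Cx43KO replicate 1 (12 members, or 32.4%, against 29.9% of all tested genes) and Cx43FL replicate 2 (9 members, or 24.3%, against 21.7%). These shares vary with the level of the genes and were not tested.

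**Figure D4:**
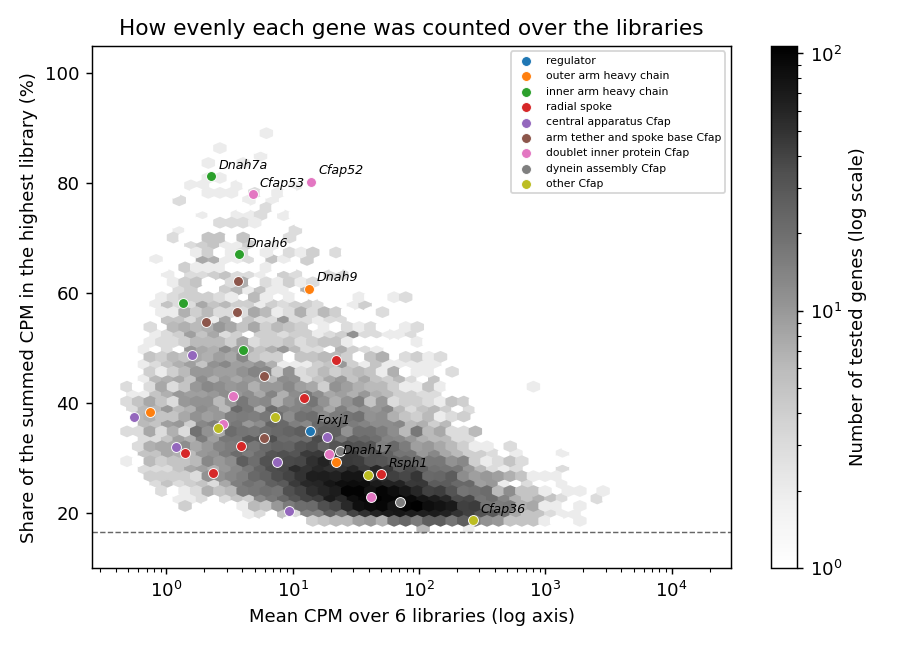
Share of the CPM summed over 6 libraries that was in the highest library (y axis, %) against the mean CPM (x axis, log) for the 37 tested motile cilia genes (coloured points) and all 13545 tested genes (grey hexagons, darker for more genes); the dashed line is an even split over 6 libraries. Cfap52, Cfap53 and Dnah7a lie near 80%, and Cfap36 lies near the line.

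The motile cilia genes as a whole had overlapping summed levels in the genotypes, at 725, 675 and 675 CPM in Cx43FL and 712, 741 and 787 CPM in Cx43KO. Cfap36, Cfap298, Cfap97 and Cfap20 made up most of this sum, with 442, 480 and 412 CPM in Cx43FL and 360, 391 and 446 CPM in Cx43KO. The other 50 members, a choice made after their values were seen and not tested, summed to 283, 195 and 263 CPM in Cx43FL and 352, 350 and 340 CPM in Cx43KO.

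Genes that work with the members were examined in 4 lists. The background shares for these lists, at an unadjusted p below 0.05 and for groups without overlap, are those given above. Of 25 genes for the assembly and docking of axonemal dyneins and the nexin-dynein regulatory complex, 20 were tested, 1 was higher, 0 were lower at this p, and 3 lay above and 1 below without overlap (median log2 fold change 0.57). Drc7, a subunit of that regulatory complex, had 21.9, 2.39 and 23.0 CPM in Cx43FL and 51.0, 38.5 and 30.3 CPM in Cx43KO (1.34 ± 0.69 SE, adjusted p = 0.609 by edgeR). Like Foxj1 it was lowest in Cx43FL replicate 2, and the groups did not overlap. The gene at p below 0.05 was Dnaaf11, a dynein assembly factor (3.10 ± 1.39 SE, adjusted p = 0.592 by edgeR), with 10.1 CPM in Cx43KO replicate 2 and 2.61 CPM or less elsewhere. The best counted were Dnaaf10, with 32.3 to 146 CPM, and Drc7.

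In a list of 45 other axonemal proteins 33 were tested, 1 was higher and 1 lower at an unadjusted p below 0.05, and 4 lay above and 1 below without overlap (median log2 fold change 0.35). Dynlrb2, a dynein light chain of cilia, had 9.09, 8.76 and 10.8 CPM in Cx43FL and 12.4, 26.8 and 37.4 CPM in Cx43KO (1.42 ± 0.55 SE, adjusted p = 0.556 by edgeR). Dnal1, an outer arm light chain, was well counted, with 49.1 to 103 CPM.

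Regulators of multiciliation gave no gene past an unadjusted p below 0.05 among 13 tested of 19, by edgeR, and the median log2 fold change was −0.17. Rfx3, the RFX factor that also serves primary cilia, had 290, 221 and 270 CPM in Cx43FL and 403, 235 and 234 CPM in Cx43KO, and E2f5, a partner of the multiciliation programme, had 126, 117 and 115 CPM against 22.6, 95.7 and 108 CPM. The latter was lower in every Cx43KO library, by far the most in replicate 1 (−0.66 ± 0.48 SE, adjusted p = 0.687 by edgeR). Mcidas and Ccno, which act at the start of multiciliation, were not tested, and each was at 0 in 3 libraries or more and at or under 1.74 CPM.

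The primary cilium list was better counted than the motile genes, since 42 of 42 genes of intraflagellar transport and the transition zone were tested and had at least 10 counts in every library. At an unadjusted p below 0.05, 3 were higher and 1 lower, 4 lay above and 4 below without overlap, and the median log2 fold change was 0.03. Ift122, of the retrograde transport complex, had 20.2, 17.9 and 13.4 CPM in Cx43FL and 61.2, 40.3 and 32.9 CPM in Cx43KO (1.38 ± 0.43 SE, adjusted p = 0.520 by edgeR). Dync2h1, the heavy chain of the retrograde motor, had 11.7, 9.29 and 14.3 CPM against 63.8, 17.6 and 23.1 CPM (1.56 ± 0.57 SE, adjusted p = 0.540 by edgeR). In both genes all Cx43KO libraries were above all Cx43FL libraries. The best counted were Arl3 (94.8 to 238 CPM) and Ift20 (104 to 194 CPM).

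Markers of neurons, microglia and the choroid plexus, the last given above, had higher sums in all 3 Cx43KO libraries than in any Cx43FL library. Sums of astrocyte, oligodendrocyte, endothelial and ependymal markers overlapped between genotypes. Astrocyte markers, 15 genes, summed to 37949, 38555 and 41571 CPM in Cx43FL and 17883, 37714 and 53894 CPM in Cx43KO, so that Cx43KO replicate 1 had the lowest sum. Neuron markers, 15 genes, had sums of 2782 to 3493 CPM in Cx43FL against 3634 to 8644 CPM in Cx43KO, and oligodendrocyte markers, 10 genes, sums of 628 to 1082 CPM and 662 to 2813 CPM, both being highest in Cx43KO replicate 1. At an unadjusted p below 0.05 by edgeR, 7 of 15 tested neuron, 4 of 9 tested microglia and 8 of 20 tested choroid plexus markers were higher. None of these markers was lower at this p. Over all tested genes 5.66% were higher and 2.67% lower. Microglia markers, 10 genes, had sums of 30.4 to 57.6 CPM in Cx43FL against 94.7 to 189 CPM in Cx43KO, and endothelial markers, 10 genes, sums of 7.95 to 11.9 CPM and 10.5 to 23.7 CPM. The 20 ependymal markers, 3 of them members, ranged in their sum from 5352 to 11227 CPM in Cx43FL against 2586 to 7659 CPM in Cx43KO, nearly all of it from Dbi and Nnat, which other brain cells also express. The part of these cells in the differences between libraries was not tested.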

How the data were processed

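Polysomal mRNAs were sequenced from 3 Cx43FL and 3 Cx43KO TRAP preparations (Ovation RNA-Seq, NuGEN). The authors aligned the reads to mm10 by STAR, discarded multi-mapped ones and deposited the raw counts per Ensembl transcript that HTSeq-count (HTSeq 0.5.3 in the submitters' processing notes) gave, and no source used here gives the strand setting. Of 75466 transcripts, 73157 matched GENCODE M21 (GRCm38), and the remaining 2309, with 1.60% to 1.78% of counts, were left out. The tests had been planned for genes, so 1 transcript, the one with the largest sum over 6 libraries, stood for each of 22086 genes. Totals on transcripts were 33423491 to 77030398.

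The comparison of genotypes used edgeR 4.0.16 (R 4.3.3; TMM, filterByExpr, quasi-likelihood F test, Benjamini-Hochberg adjustment over all tested genes), and a call needed an adjusted p below 0.05 and a mean normalized count above 50. Levels are CPM after TMM scaling. Single genes also had a 2-sided exact permutation test on log2(CPM + 0.5). On simulated data for this comparison (13545 genes), 200 genes with a mean normalized count above 50 were changed by a log2 fold of 3. Of these edgeR recovered 71.5%, with 7 false calls. Recovery of changes at lower counts, such as those of Cfap46 and Dnah5, was not simulated. No pair of libraries agreed within sampling noise. Same-numbered libraries did not deviate together. Alternatives were DESeq2 1.42.0 (its size factors, and its test with and without a prior), leaving the low genes in, a minimum of 10 counts in all libraries, the replicate number as a block, transcripts summed per gene, and each library left out in turn. Leaving out Cx43FL replicate 2 and Cx43KO replicate 1 together was added after the data were seen.

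Named were Foxj1, the 2 members of each role with the highest mean CPM, members past an unadjusted p of 0.05, and members whose groups did not overlap; of the lists of cooperating genes, the lowest p and the highest CPM. Others, among them Cfap36, Cfap43, Cfap97, Dnah7b, Rsph4a, E2f5 and the untested members, were named after their values were seen. Some results, among them part of the list of other axonemal proteins, are not reported here. Marker lists (ependymal, choroid plexus, astrocyte, neuron, oligodendrocyte, microglia, endothelial) are given by sums and a few genes, although the rule had also planned the lowest p of each. The members and lists were chosen with earlier results of these data known.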

Additional observations from a re-analysis of the deposited data

How the results depend on the processing

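No call of a member by edgeR appeared under any alternative tried, and 0 members were called except by DESeq2 without a prior, which called 2. The number of members higher at an unadjusted p below 0.05 (2) became 0 with at least 10 counts in every library, 5 without Cx43FL replicate 2 and Cx43KO replicate 1 together and 1 to 7 with each library left out; the number lower (1) became 3 without a filter and 0 to 1 with each library left out. Members with every Cx43KO library above (0) became 1 with transcripts summed, 7 without those libraries and 1 to 7 leaving out each. Those below (2) became 1 with at least 10 counts, 5 without those libraries and 2 to 6 leaving out each. The matching shares over all tested genes were not computed under these alternatives, for the unadjusted p or for groups without overlap. Groups of fewer libraries also fail to overlap more easily, so these counts are not read as results about the members. Over all genes, 1 was called higher and 0 lower; DESeq2 called 118 and 19 without and 99 and 14 with a prior, and the number higher was 0 with at least 10 counts in every library, 0 with transcripts summed, 2 with the replicate block, 12 without those libraries and 0 to 11 leaving out each. In the lists of cooperating genes, 5 were higher and 2 lower at an unadjusted p below 0.05; DESeq2, with and without a prior, gave 9 higher and 4 lower, the replicate block 1 lower, leaving out each library 2 to 8 higher and 1 to 3 lower, and leaving out both libraries 4 lower.

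The median log2 fold change of the tested members (0.08) stayed within the spread of the Cx43KO libraries, at 0.19 with the replicate block, 0.31 with transcripts summed and −0.11 to 0.36 leaving out each library. Of 329 fold changes of 24 named members under alternatives, 14 reversed, in 9 members. With the replicate block Dnah1 gave 0.42 and Dnah6 −2.03, with transcripts summed Cfap74 gave 0.36, and without both libraries Cfap20 gave 0.17, Dnah9 −0.49 and Rsph1 −0.026. Leaving out each library, the range crossed 0 for Dnah1 (−2.20 to 1.60), Dnah6 (−3.18 to 1.74), Dnah9 (−0.47 to 2.03), Rsph1 (−0.45 to 0.32), Rsph9 (−0.49 to 1.38), Rsph4a (−0.18 to 1.27) and Cfap300 (−0.15 to 0.79). The causes were not tested. Replicate numbers are shared by the groups in the labels only, the correlations of same-numbered libraries being 0.01, −0.004 and −0.05, and the block changed no call of a member. Of the 54 members, 23 were at 0 in at least 1 library, and how large a difference could be detected at the members' counts was not tested.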

Other observations

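The intermediate chains that anchor the dynein arms to the doublet stand under older symbols in the annotation, so the naming rule missed them. Dnaic1, the Dnai1 of RefSeq, had 54.6, 61.2 and 32.4 CPM in Cx43FL and 22.4, 57.8 and 65.8 CPM in Cx43KO (log2 fold change −0.02 ± 0.45 SE), on a transcript of 965 bases. Dnaic2, the Dnai2 of RefSeq, had 0.395, 3.65 and 3.97 CPM against 0.124, 11.2 and 3.70 CPM. The groups overlapped for both of these outer arm chains.

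Wdr63 and Wdr78, intermediate chains of inner arms, were higher in every Cx43KO library. Wdr78 had 5.34, 2.92 and 10.9 CPM in Cx43FL and 23.3, 11.9 and 61.9 CPM in Cx43KO (2.34 ± 0.73 SE, unadjusted p = 0.00834, adjusted p = 0.520 by edgeR). Wdr63 had 0.395, 0.730 and 0.391 CPM against 2.42, 4.42 and 2.75 CPM (2.65 ± 1.15 SE, unadjusted p = 0.0413, adjusted p = 0.592 by edgeR). Neither passed the adjusted threshold, and both were looked up after the values of the members were seen. Casc1, of the same family, had 5.53, 0.265 and 3.19 CPM in Cx43FL and 0.0621, 1.17 and 2.07 CPM in Cx43KO, with overlapping groups.

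Tmem212, a marker of multiciliated cells, had 0.395, 0 and 0.0651 CPM in Cx43FL and 6.89, 1.53 and 3.12 CPM in Cx43KO (4.59 ± 1.54 SE, unadjusted p = 0.0126, adjusted p = 0.540 by edgeR). This was the highest fold change among the 20 ependymal markers. Of the 19 tested, 11 had a positive and 8 a negative fold change, with a median of 0.17. Without overlap, 2 lay above and 1 below, beside 8.08% and 7.45% of all tested genes. Spag16, of the central apparatus, was at 0 in Cx43FL replicate 2, like Folr1, and had 8.43 and 8.27 CPM in the other Cx43FL libraries and 12.7, 15.5 and 9.63 CPM in Cx43KO.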
